A study of Homo sapiens with 17 samples.

Results

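ZIC1, ZIC2, ZIC4 and ZIC5, 4 members of the ZIC family of zinc finger transcription factors, were followed through the promoter interactions and H3K4me1 of naive and primed human pluripotent stem cells (PSCs). Neither interaction list names genes: column 4 of it holds only a strand for a baited fragment and a dot for any other. The members were therefore located by annotation, as the baited HindIII fragments that hold a GENCODE release 44 promoter of 1 of the 4 genes, counted from 1000 bp upstream to the transcript start. This gave 3 ZIC baits among 15982 baited fragments and 24 partner fragments of these baits among 88413 listed fragments. Both cell types came from the human embryonic stem cell line H9 NK2, with no other line for comparison. Naive PSCs were grown on Matrigel in t2iL+PKCi medium, which holds the inhibitors PD0325901, CHIR99021 and Go6983 and LIF, and primed PSCs on Vitronectin in TeSR-E8. Promoter capture Hi-C (PCHi-C, which enriches ligated fragment pairs for promoters) gave 1 list of interactions per cell type, combined by the authors from 2 replicates, and Hi-C gave 1 library per cell type. H3K4me1, the monomethylated histone H3 lysine that marks enhancers and the flanks of promoters, was profiled by CUT&RUN, with 2 libraries of naive and 3 of primed PSCs.

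ZIC proteins are zinc finger factors of the GLI superfamily, and they act in neural plate and neural crest development and can modulate the output of Hedgehog signalling. The genes lie in divergent pairs: ZIC1 and ZIC4 run away from each other on chromosome 3, and ZIC5 and ZIC2 do so on chromosome 13. ZIC2 is known as a gene of primed pluripotency. Developmental promoters of this kind carry CpG islands and are often bound by Polycomb proteins in pluripotent cells.

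The ZIC2/ZIC5 bait, chr13:99963634-99984051 of GRCh38, is 20418 bp long and holds the starts of both genes and of the lncRNA ENSG00000288060 between them. On chromosome 3 the ZIC4-side bait (chr3:147389503-147394704, 5202 bp) holds internal starts of ZIC4 and early starts of ZIC1, and the ZIC1-side bait (chr3:147405156-147412390, 7235 bp) holds the ZIC1 start at 147409365 and the upstream starts of ZIC4. Because the genes of a pair share their baits, an interaction could not be given to one gene of a pair. Of the annotated starts, 3 of 5 for ZIC1, 11 of 15 for ZIC4, 1 of 5 for ZIC2 and 1 of 1 for ZIC5 lay in a bait. A neighbouring bait, chr3:147384267-147387148, overlaps the last exon of ZIC4 but holds the promoter of ZIC4-AS1. It was kept apart from the members, and its values are given beside theirs.

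Of the promoters that the baits carry, 5 are shown first, as the 250 bases upstream of a RefSeq start (GRCh38.p14). Each runs 5′ to 3′ on the strand of its gene, with every CpG in capitals. They are ZIC1 (chr3:147409115-147409364, plus strand), ZIC4 in the ZIC1-side bait (chr3:147406544-147406793, minus strand), ZIC4 in the ZIC4-side bait (chr3:147392383-147392632, minus strand), ZIC5 (chr13:99971910-99972159, minus strand) and ZIC2 (chr13:99981534-99981783, plus strand).
ZIC1: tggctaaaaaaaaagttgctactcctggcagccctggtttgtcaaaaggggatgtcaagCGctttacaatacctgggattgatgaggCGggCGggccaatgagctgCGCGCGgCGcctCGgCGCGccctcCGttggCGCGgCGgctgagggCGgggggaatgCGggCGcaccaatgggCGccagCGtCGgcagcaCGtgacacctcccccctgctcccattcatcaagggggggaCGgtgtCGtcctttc
ZIC4, ZIC1-side bait: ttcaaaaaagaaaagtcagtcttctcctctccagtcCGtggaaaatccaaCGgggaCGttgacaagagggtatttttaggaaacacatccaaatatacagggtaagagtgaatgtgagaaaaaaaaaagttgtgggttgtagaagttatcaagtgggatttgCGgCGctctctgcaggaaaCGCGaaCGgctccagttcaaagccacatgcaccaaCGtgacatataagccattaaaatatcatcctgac
ZIC4, ZIC4-side bait: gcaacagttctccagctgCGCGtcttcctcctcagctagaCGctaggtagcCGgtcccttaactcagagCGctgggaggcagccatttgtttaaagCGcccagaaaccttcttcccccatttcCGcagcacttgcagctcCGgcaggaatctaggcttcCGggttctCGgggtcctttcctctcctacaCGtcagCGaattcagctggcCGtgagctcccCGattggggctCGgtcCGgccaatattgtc
ZIC5: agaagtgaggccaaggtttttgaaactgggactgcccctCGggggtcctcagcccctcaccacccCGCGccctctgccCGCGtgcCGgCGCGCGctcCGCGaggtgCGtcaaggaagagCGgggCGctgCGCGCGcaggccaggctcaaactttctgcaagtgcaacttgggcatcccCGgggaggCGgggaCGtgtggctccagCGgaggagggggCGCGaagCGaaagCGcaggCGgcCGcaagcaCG
ZIC2: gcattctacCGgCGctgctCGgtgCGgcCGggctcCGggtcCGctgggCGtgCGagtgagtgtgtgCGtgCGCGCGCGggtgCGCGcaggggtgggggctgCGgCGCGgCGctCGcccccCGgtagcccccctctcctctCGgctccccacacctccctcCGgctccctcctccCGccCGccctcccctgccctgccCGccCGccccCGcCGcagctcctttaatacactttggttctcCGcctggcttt
The ZIC2 window held 31 CpG and was 75.6% G and C, the ZIC5 window 28 CpG and 70.4%, and the ZIC1 window 23 CpG and 64.4%. The ZIC4 windows shown held 16 CpG and 58.8% at the ZIC4-side bait and 9 CpG and 42.8% at the ZIC1-side bait. Over the 35116 RefSeq promoter windows of the same length the medians were 11 CpG and 58% G and C, so the upstream ZIC4 window stood below the median in both measures and the other 4 windows shown above it. Of the bait windows not shown, that of the ZIC4 start at 147405520 held 7 CpG (60% G and C), below the median CpG number. Those of the ZIC5 starts at 99969172 and 99971767 held 12 and 21 CpG (61.6% and 64.8%). None of these windows, shown or not, held the octamer motif ATGCAAAT, the SOX motif CATTGTT or the GLI motif GACCACCCA on either strand. Of all promoter windows, 1.63% held the octamer, 2.87% the SOX motif and 0.199% the GLI motif.

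Then 3 stretches of the baits, taken from the tiles with the largest H3K4me1 differences (the highest rise of each locus in primed PSCs and the largest fall at ZIC2/ZIC5), are shown as the middle 300 bases of a 500 bp tile on the plus strand of GRCh38, again with every CpG in capitals. The first (chr13:99975601-99975900) lies in the lncRNA intron between ZIC5 and ZIC2, and the second (chr13:99982601-99982900) in the coding part of the first ZIC2 exon. The third (chr3:147389601-147389900) lies in a ZIC4 intron.
ZIC5 to ZIC2, higher in primed: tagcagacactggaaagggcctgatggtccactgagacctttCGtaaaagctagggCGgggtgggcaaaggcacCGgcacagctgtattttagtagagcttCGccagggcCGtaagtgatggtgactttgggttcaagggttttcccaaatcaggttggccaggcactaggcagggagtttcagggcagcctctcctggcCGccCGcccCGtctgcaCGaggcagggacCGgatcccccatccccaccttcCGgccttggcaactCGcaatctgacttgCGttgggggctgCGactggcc
ZIC2 exon, higher in naive: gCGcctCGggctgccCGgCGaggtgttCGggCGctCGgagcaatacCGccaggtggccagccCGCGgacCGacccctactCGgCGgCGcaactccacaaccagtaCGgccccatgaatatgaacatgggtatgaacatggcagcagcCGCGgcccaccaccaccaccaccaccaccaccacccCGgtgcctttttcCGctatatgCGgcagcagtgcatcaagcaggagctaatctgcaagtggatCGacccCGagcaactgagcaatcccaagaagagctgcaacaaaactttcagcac
ZIC4 intron, higher in primed: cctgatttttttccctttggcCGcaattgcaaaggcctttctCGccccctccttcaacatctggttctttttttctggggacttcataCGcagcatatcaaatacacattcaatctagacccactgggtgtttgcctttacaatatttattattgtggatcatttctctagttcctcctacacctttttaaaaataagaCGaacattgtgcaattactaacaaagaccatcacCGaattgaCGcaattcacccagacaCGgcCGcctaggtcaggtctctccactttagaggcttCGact
They held 14, 22 and 9 CpG, against a median of 2 over the middle 300 bases of 7671 listed fragments of chromosomes 3 and 13. The stretches come from promoter baits and the middles from listed fragments of any kind, so the sets are unlike. None of the stretches held the 3 motifs, which were found in 2.11% (octamer), 5.79% (SOX) and 0.156% (GLI) of those fragment middles.

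The ZIC baits had more listed interactions in primed than in naive PSCs, 23 against 8. An interaction was listed where its CHiCAGO score, which weighs the reads of a fragment pair against those expected at its distance, was at least 5. The ZIC4-side bait went from 0 naive to 5 primed interactions. The ZIC1-side bait had 1 naive and 4 primed interactions. The ZIC2/ZIC5 bait had the most, 7 naive and 14 primed. All 3 baits therefore had at least 2 times as many and at least 3 more in primed PSCs, as did 16.1% of all baits, while 14.4% of all baits did so in naive PSCs. The neighbouring ZIC4-AS1 bait had 1 naive and 12 primed interactions. Across all baits the median was 3 in both cell types, and the whole lists held 79330 naive and 88985 primed interactions. With 1 combined list per cell type there was no replicate spread and no test. The exact 95% Poisson intervals, which cover counting error only, overlapped at both loci (0.0253 to 5.57 against 4.12 to 17.1 for ZIC1/ZIC4, and 2.81 to 14.4 against 7.65 to 23.5 for ZIC2/ZIC5). When only interactions with a score of at least 10 were counted, ZIC1/ZIC4 had 0 and 3 and ZIC2/ZIC5 had 2 and 4.

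**Figure D1:**
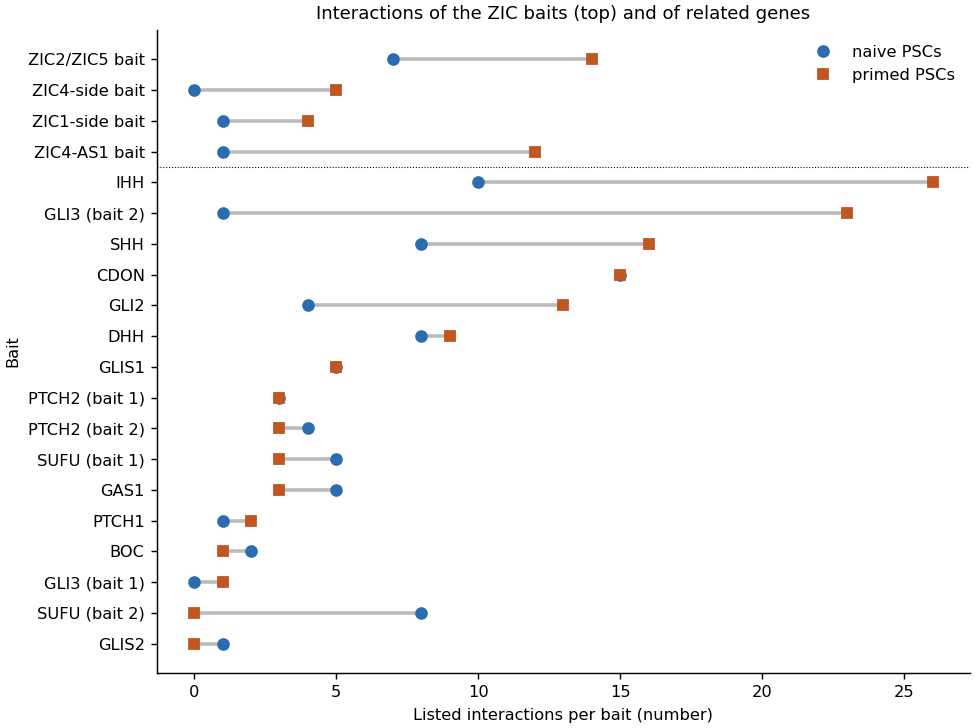
Number of listed interactions per bait (x axis) in naive PSCs (circles) and primed PSCs (squares), for the 3 ZIC baits and the ZIC4-AS1 bait above the dotted line and the baits of the GLI superfamily and Hedgehog list below it; there are no error bars, because each cell type has 1 combined list. The ZIC baits run from 0, 1 and 7 naive to 5, 4 and 14 primed interactions, and IHH has the largest primed number of the baits shown, 26.

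Most ZIC interactions of naive PSCs were also listed in primed PSCs. Of the 25 interactions in either list, 6 were in both, 2 in naive PSCs only and 17 in primed PSCs only. The shared ones made up 75% of the naive list at these baits, with a 95% Wilson interval from 40.9 to 92.9, and 26.1% of the primed list, with an interval from 12.5 to 46.5. Over all 128955 interactions in either list, 30.5% were in both lists, 38.5% in primed PSCs only and 31.0% in naive PSCs only. These percentages stand beside the 6, 17 and 2 of 25 ZIC interactions, not beside the shares of the naive or the primed list. For those shares, the whole lists had 39360 interactions in common, out of 79330 naive and 88985 primed interactions. When ends within 10 kb counted as the same place, all 8 naive interactions had a primed counterpart and 12 of 23 primed interactions had a naive one. The 3 baits had no interaction with each other and none with another chromosome. The median distance was 262 kb in naive and 286 kb in primed PSCs.

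At ZIC2/ZIC5 the bait contacted both neighbouring genes, CLYBL upstream and PCCA downstream, in both cell types, and the 2 sides differed in how they were listed. CLYBL encodes citramalyl-CoA lyase and PCCA a subunit of propionyl-CoA carboxylase, both mitochondrial enzymes. The CLYBL side was listed mostly in primed PSCs. Around CLYBL-AS2, a lncRNA inside CLYBL (chr13:99686931-99695159), 1 fragment was listed in naive PSCs (14 reads) and 4 in primed PSCs (67 reads). The fragment that holds CLYBL-AS2 itself is baited and had the highest ZIC score of all in primed PSCs, 17.27 from 34 reads, and it was not listed in naive PSCs. The 2 fragments of a CLYBL intron (chr13:99652819-99666289) had scores of 14.53 and 11.32 in primed PSCs, and the baited CLYBL promoter fragment (chr13:99593456-99607180) had 9.32, none of them listed in naive PSCs. Read numbers also follow the depth of each list, so they were not compared between the cell types.

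The PCCA side was listed in both cell types. In the middle of PCCA (chr13:100231509-100238635, 258 to 263 kb from the bait) 5 neighbouring fragments were listed in naive PSCs and 3 of them in primed PSCs. The fragment at 100234759 had 26 reads and a score of 13.19 in naive PSCs and 23 reads and 16.17 in primed PSCs. Its neighbour at 100235504 had 27 reads and 13.71 in naive PSCs and 12 reads and 7.19 in primed PSCs. These 2 were the highest naive scores of any ZIC bait. The 2 naive-only ZIC interactions were the adjoining fragments at 100231509 and 100232062, with scores of 5.02 and 6.58. At the 3′ end of PCCA (chr13:100514113-100523278) 1 fragment was listed in naive PSCs, with a score of 6.01, and 3 in primed PSCs, with scores from 5.2 to 7.78. Close to the bait, a fragment just beyond the 3′ end of ZIC5 (chr13:99958613-99962870, with the promoter of the lncRNA ENSG00000286757) was listed in primed PSCs only, with 175 reads and a score of 9.88.

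At ZIC1/ZIC4 the contacts of primed PSCs fell into a near and a far set. The near set was listed in primed PSCs only: 3 fragments in and beside the lncRNA ENSG00000243620 (chr3:147357750-147378704, 33.6 to 50.7 kb from the ZIC1-side bait) had scores of 5.96, 10.3 and 5.51, and a fragment inside ZIC1 that holds a late ZIC1 start (chr3:147417572-147421846) had 93 reads and 5.12 with the ZIC4-side bait. The far set centred on the baited fragment of the lncRNAs LINC02032 and ENSG00000285798 (chr3:148078281-148083964), 672 and 689 kb away. The ZIC1-side bait contacted it in both cell types, with 9 reads and a score of 5.19 in naive PSCs and 17 reads and 13.6 in primed PSCs. The ZIC4-side bait contacted it in primed PSCs only, with 18 reads and a score of 12.73. The ZIC4-AS1 bait had there its only naive interaction, with a score of 6.12, and its highest primed one, with 27.38. The 2 intergenic fragments at 147934915 and 148149588 were listed with the ZIC4-side bait in primed PSCs, with scores of 6 and 5.94.

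**Figure D2:**
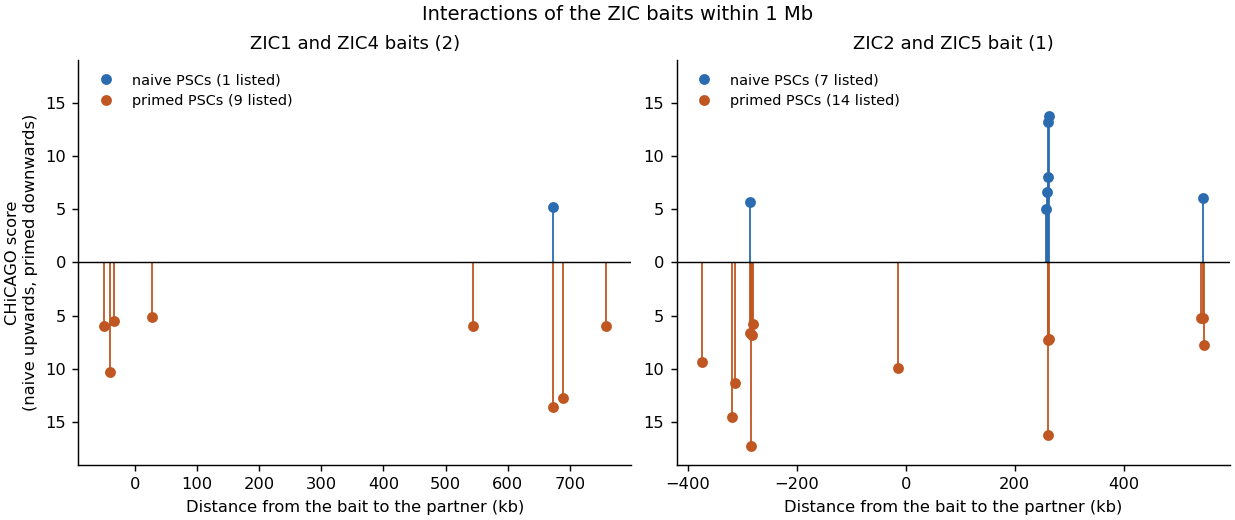
CHiCAGO score (y axis, naive upwards and primed downwards) against the distance from bait to partner in kb (x axis) for each listed interaction of the ZIC1 and ZIC4 baits (left) and the ZIC2/ZIC5 bait (right), 1 combined list per cell type; the primed interaction at 10.7 Mb is counted in the legend but lies outside the plot. The naive scores of ZIC2/ZIC5 gather at about 260 kb, while primed scores also stand on the other side of the bait, up to 17.27.

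Only 1 ZIC interaction was longer than 1 Mb, and it was listed in primed PSCs. The ZIC4-side bait was joined to an exon of SHOX2, a homeobox gene (chr3:158099914-158101140), over 10.7 Mb, with 4 reads and a score of 7.91, and no naive interaction exceeded 1 Mb. It was lost when at least 10 reads or a score of at least 10 was asked for. PCHi-C was made by capture from Hi-C library DNA, so the Hi-C values may not be independent of the listed interactions. In the primed Hi-C library the 100 kb bin pair that holds the SHOX2 interaction had 8 contacts, and pairs at that distance on chromosome 3 had a mean of 0.995. The ratio was 8.04 (95% exact Poisson interval 3.47 to 15.8, counting error only), and 6.38 with the expected value scaled by the coverage of both bins. Primed pairs that were not listed counted as empty in each such mean. Where low values were left out, the mean is too low and the ratio too high. The bin pair was not listed in the naive Hi-C file, which leaves out low values, so the cell types could not be compared there. For the far set, the bin pair of the ZIC1-side bait and LINC02032 had 266 primed contacts, 3.79 times the mean of its distance (3.35 to 4.28), and 1.86 times with coverage taken into account. The other chromosome 3 pairs within 1 Mb had lower ratios to the mean. The bin pair of the ZIC4-side bait with LINC02032 had 2.68 times the mean (1.44 with coverage), that with the fragment at 148149588 had 2.44 (2.03) and that with the fragment at 147934915 had 1.67 (0.879). The neighbouring bins that hold the near contacts had 1.41 times the mean and 0.802 with coverage, so 2 of these pairs stood below the mean once coverage was taken into account. The naive library had 130 contacts at the pair of the ZIC1-side bait with LINC02032, and 557 against 645 primed at the neighbouring bins. The ZIC4-side pairs with LINC02032 and the fragments at 148149588 and 147934915 had 110, 58 and 94 naive and 153, 116 and 117 primed contacts. On chromosome 13, the bin pairs of the ZIC2/ZIC5 bait with the CLYBL-AS2 side, the middle of PCCA and its 3′ end had 1.28, 0.957 and 2.11 times the mean of their distances. With coverage taken into account the ratios were 3.61, 2.33 and 3.43, so the middle of PCCA stood below the mean in one measure and above it in the other. Summed over 3 by 3 bins, the primed ratios were 0.956, 0.764 and 1.21. These pairs had 218, 239 and 103 naive contacts, and 203, 152 and 159 primed contacts. The naive library held 31310843 listed contacts in all and the primed library 52056334, and the contact numbers above were not scaled to these totals. As a share of the totals, naive values were higher at the chromosome 13 pairs and at the neighbouring bins. They were also higher at the ZIC4-side pairs with LINC02032 and the fragment at 147934915. Primed shares were higher at the ZIC1-side pair with LINC02032 and the ZIC4-side pair with the fragment at 148149588. With 1 library per cell type, the Hi-C difference between the cell types was not tested.

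Of the 5 baits whose partners were most like those of a ZIC bait, 4 lay at the same locus. Likeness was the share of the union of partner fragments, over both lists, that 2 baits had in common. The bait of ENSG00000243620 shared 4 of 9 fragments with the ZIC4-side bait (0.444), the ZIC4-AS1 bait shared 3 of 14 with it (0.214), and the CLYBL-AS2 bait shared 5 of 24 with the ZIC2/ZIC5 bait (0.208). The ZIC4-side and ZIC1-side baits shared 1 of 8 (0.125), which was the LINC02032 fragment. The next was the bait of RSRC1 and SHOX2, with 1 of 9 shared with the ZIC1-side bait (0.111). The chromosome 3 and chromosome 13 baits had no partner in common.

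H3K4me1 averaged over a whole ZIC bait did not pass the test, although single stretches did. Values are log2 RPM (mapped reads scaled to the size of the library) per 500 bp tile, averaged over the tiles of a fragment. Worked out from the value of an empty tile, taken as 0.9 reads, the libraries held about 6743810 to 26596500 mapped reads. The shallower ones had a higher value for an empty tile. At the ZIC2/ZIC5 bait, the 2 naive libraries stood at -0.81 and -0.89 and the 3 primed libraries at -0.11, -0.51 and -0.30. The groups did not overlap, and the difference of 0.54 (SE 0.36, limma adjusted p = 0.323) did not pass. At the ZIC4-side bait the naive libraries stood at -0.13 and -0.94 and the primed libraries at 0.80, 0.08 and 0.21. They did not overlap either, with a difference of 0.90 (SE 0.38, limma adjusted p = 0.0758). At the ZIC1-side bait the naive values were 0.05 and -0.16 and the primed values 0.19, -0.57 and -0.15. Here the groups overlapped, and the difference was -0.12 (SE 0.37, limma adjusted p = 0.901). Thus 0 of 3 ZIC baits were called in either direction by limma, and 1 had an unadjusted p under 0.05, the ZIC4-side bait. Among all baits 7.66% were called higher in primed and 18.1% higher in naive PSCs. By edgeR on reads recovered from the tiles, the ZIC2/ZIC5 and ZIC4-side baits were called higher in primed PSCs (adjusted p = 0.0177 and 0.0128), as under quantile normalization. Those fits called 13.5% (edgeR) and 10.3% (quantile) of all baits higher in primed PSCs. By the highest tile of each fragment, the ZIC4-side and ZIC1-side baits were called (adjusted p = 0.0422 and 0.0104), where 8.03% of all baits were called higher in primed and 10.3% higher in naive PSCs. Without the primed replicate 2 the ZIC4-side bait passed (adjusted p = 0.0128), where 8.18% of all baits were called higher in primed PSCs. The ZIC4-AS1 bait rose by 2.19 (SE 0.37, limma adjusted p = 4.60e-06) and passed under all 13 alternatives. The methods call the CUT&RUN libraries biological replicates, but neither they nor the labels say whether these were separate cultures, and the p-values measure the spread between these libraries.

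Within the ZIC2/ZIC5 bait, stretches of tiles moved in opposite directions. Of its 42 tiles, 16 were called higher in primed and 7 higher in naive PSCs in a fit of all tiles of the genome without a filter, in which 3.78% and 4.19% of tiles were called. Between ZIC5 and ZIC2, 10 tiles in a row (chr13:99973001-99978000) were higher in primed PSCs, by 1.65 to 3.53. Their mean was -1.74 and -1.55 in the naive libraries and 1.36, 0.78 and 1.11 in the primed libraries. No tile of this stretch overlapped between the groups. The mean rested on 70 and 26 naive reads and on 232, 152 and 584 primed reads. At the 3′ end of ZIC5, 6 tiles in 2 stretches between 99963501 and 99967000 were also higher in primed PSCs, by 1.69 to 3.17. In the longer of them the naive libraries stood at -2.54 and -1.06 and the primed libraries at 0.85, 0.09 and 0.57. It rested on 23 and 15 naive and on 77, 38 and 181 primed reads, and the shorter on 7 and 1 and on 30, 14 and 48. Naive replicate 2 had 0 reads at 99964001 and 99965001, so its values there were those of an empty tile.

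Over ZIC2 itself the direction was the opposite. The 5 tiles from 99982001 to 99984500, which begin just after the ZIC2 start and cover exons and an intron of the gene, were higher in naive PSCs, with differences from -3.15 to -2.14. Their mean was 0.57 and 0.35 in the naive libraries and -1.89, -2.61 and -1.78 in the primed libraries. It rested on 173 and 47 naive reads and on only 16, 6 and 41 primed reads. At 99982001 primed replicates 1 and 2 had 0 reads, so their values were those of an empty tile. The groups did not overlap in any of the 5 tiles. The ZIC5 intron tiles at 99968501 and 99969501 were higher in naive PSCs as well, with differences of -1.43 and -2.65. The tile between them, at 99969001, holds another RefSeq start of ZIC5 and was not called (difference -1.14, limma adjusted p = 0.266). The tile with the ZIC5 start, at 99971501, stood at -0.20 and 0.05 in naive and 0.18, 0.48 and -0.34 in primed PSCs, and the groups overlapped. The tile with the ZIC2 start, at 99981501, stood at -0.74 and -1.75 in naive and -3.15, -1.98 and -2.15 in primed PSCs (difference -1.18, limma adjusted p = 0.456).

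In the chromosome 3 baits only short stretches were called higher in primed PSCs. The median tile difference was 0.99 at the ZIC4-side bait and -0.63 at the ZIC1-side bait. In the ZIC4-side bait, 2 of 11 tiles were called, both higher in primed PSCs (chr3:147389501-147390500, in a ZIC4 intron). Their mean was -1.57 and -2.25 in the naive and 1.31, 0.88 and 1.61 in the primed libraries, with differences of 3.30 and 3.05. In the ZIC1-side bait, 3 of 15 tiles, around the ZIC4 start at 147405520 (chr3:147405001-147406500), were higher in primed PSCs by 1.89 to 2.41. Their mean was -0.61 and -0.35 in naive and 1.61, 1.79 and 1.64 in primed libraries. A tile of a ZIC1 exon in that bait (chr3:147411001-147411500) was higher in naive PSCs, at 0.26 and -0.43 against -3.30, -1.40 and -2.15 (limma adjusted p = 0.0393), on 0 to 6 reads in the primed libraries. In the tile with the ZIC1 start, at 147409001, the values were 0.41 and 0.42 in naive and 0.85, 0.02 and -0.21 in primed PSCs, and the groups overlapped.

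Over the 3 baits, 21 of 68 tiles were called higher in primed and 8 higher in naive PSCs without a filter. In the fit limited to tiles above 0 log2 RPM in at least 2 libraries, 47 of the 68 tiles passed the filter, and 20 were called higher in primed and 5 higher in naive PSCs. In that fit 25.9% and 26.1% of tiles were called, since a tile low in both cell types did not enter it. A tile could pass the filter through 1 cell type alone, so the filtered counts partly follow from the filter. The tile at 99973001, for instance, stood at -2.86 and -1.75 in naive and 1.55, 0.19 and 0.44 in primed PSCs. The median difference of the 68 tiles was 0.30, beside -0.02 over all tiles. In the filtered fit, the 5 calls higher in naive PSCs became 8 without primed replicate 1. Such calls over all 465156 filtered tiles also rose there, from 121251 to 134820. They were fewer without either naive replicate, both in the ZIC baits and over all tiles. All 7 tiles of the ZIC4-AS1 bait were called higher in primed PSCs without a filter.

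**Figure D3:**
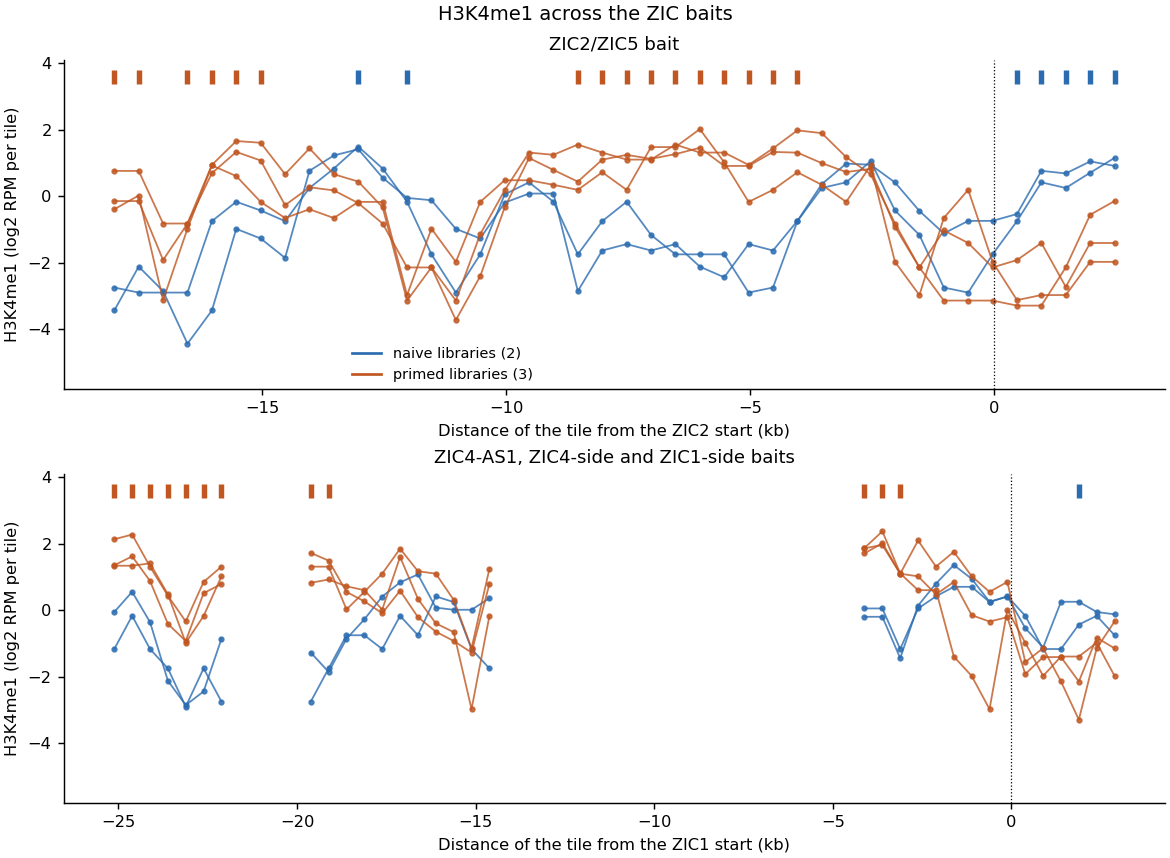
H3K4me1 in log2 RPM per 500 bp tile (y axis) against the distance of the tile from the ZIC2 start (upper) or the ZIC1 start (lower) in kb (x axis), with 1 line per library (naive blue, primed orange) and a bar at the top where limma without a filter called the tile higher in primed (orange) or naive (blue). The primed lines stand above the naive lines across the 10 tiles between ZIC5 and ZIC2 and below them in the 5 tiles after the ZIC2 start.

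Among the partner fragments, the 4 largest rises of H3K4me1 in primed PSCs were all within 50.7 kb of a ZIC bait. Of the 24 partners, 9 were higher in primed, 3 higher in naive PSCs and 12 did not pass, where 9.81% and 15.2% of all listed fragments were called. Their median difference was 0.67, beside -0.06 over all fragments. With either naive replicate left out, which left 1 naive library, fewer partners were called in both directions. The same held for the calls over all listed fragments. Several partners lie side by side and share their source, so the counts were not tested. The largest rise was at the late ZIC1 start (chr3:147417572-147421846), from -0.81 and -0.94 in naive to 1.76, 1.02 and 1.21 in primed PSCs (difference 2.20, SE 0.38, limma adjusted p = 6.40e-06). The fragment beyond the 3′ end of ZIC5 (chr13:99958613-99962870) stood at -0.92 and -1.01 in naive and 1.71, 0.80 and 1.08 in primed PSCs (difference 2.16, limma adjusted p = 9.09e-06). An intronic fragment of ENSG00000243620 (chr3:147357750-147358342) stood at -2.36 and -1.59 in naive and -0.27, 0.27 and 0.24 in primed PSCs (difference 2.06, limma adjusted p = 1.15e-05). These 3 were listed as primed-only contacts, and each passed under all 13 alternatives.

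The next were the baited fragment of ENSG00000243620 (chr3:147365752-147371633), with -1.52 and -1.10 in naive and 0.42, -0.07 and 0.41 in primed PSCs (difference 1.56), and the PCCA fragment at 100235504, with -3.41 and -2.32 in naive and -1.04, -1.67 and -1.42 in primed PSCs (difference 1.49). The latter was a shared contact whose score was lower in primed PSCs. Both calls were lost by the highest tile and without naive replicate 1, where the differences were 1.35 and 0.94 (limma adjusted p = 0.0879 and 0.197). Around CLYBL-AS2, the fragments at 99686931 and 99691688 passed with differences of 1.18 and 1.22, but under only 6 and 7 of 13 alternatives. Both calls were lost without either naive replicate and by the highest tile, where the difference at 99686931 was 0.076. The baited CLYBL-AS2 fragment between them had 0.25 and 0.58 in naive and 1.62, 0.66 and 1.92 in primed PSCs (limma adjusted p = 0.0670). The other baited partners, at CLYBL and LINC02032, did not pass (differences 0.22 and 0.65). LINC02032, the strongest far contact of ZIC1/ZIC4, was low in H3K4me1 in every library, from -3.63 to -2.16.

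All 3 partners called higher in naive PSCs were primed-only contacts. At the 3′ end of PCCA (chr13:100514113-100517904), a fragment stood at 1.59 and 1.39 in naive and 0.50, 0.24 and 0.44 in primed PSCs (difference -1.10, limma adjusted p = 0.0276). The intergenic fragment at chr3:148149588 and the SHOX2 exon had differences of -1.11 and -1.14, with overlapping libraries. All 3 calls were lost when each library was centred on its median.

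**Figure D4:**
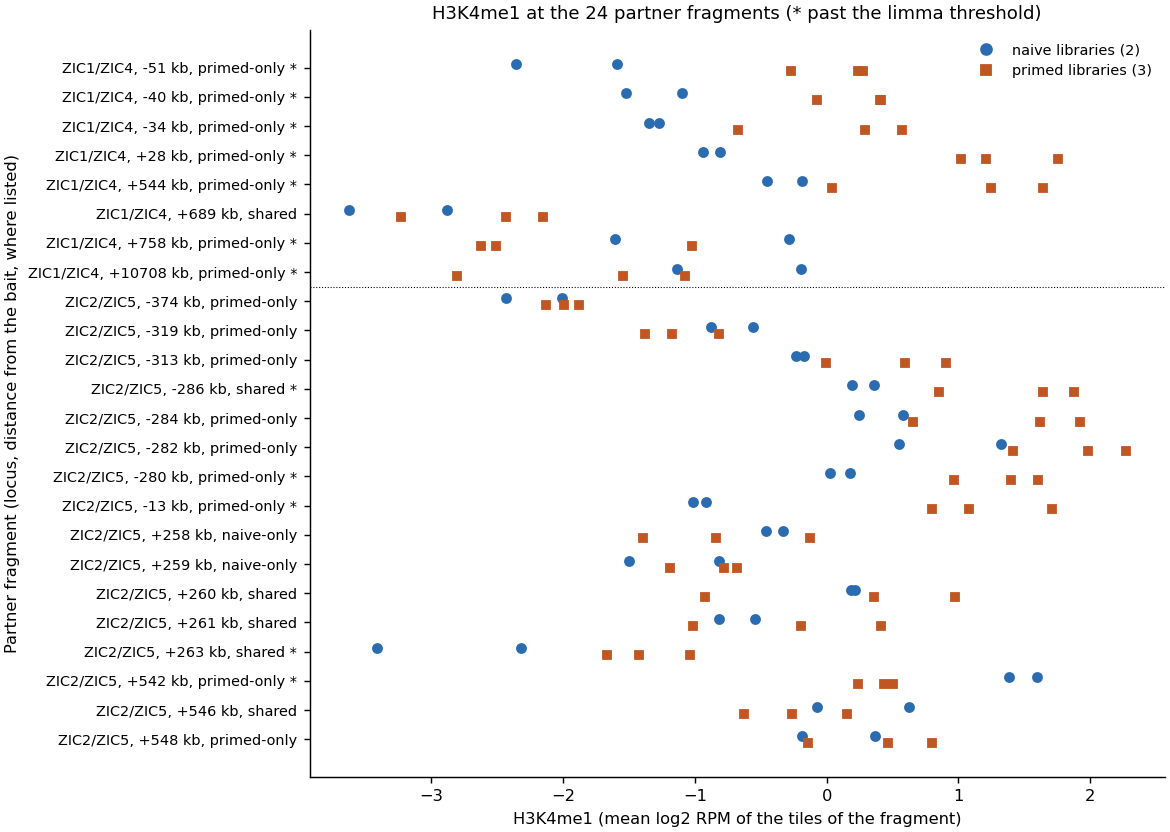
H3K4me1 as the mean log2 RPM of the tiles of each of the 24 partner fragments (x axis), with 1 point per library (naive circles, primed squares), ordered by locus and position (y axis, with the distance from the bait and the list that holds the contact); asterisks mark the 12 fragments past the limma threshold. The near ZIC1/ZIC4 partners and the fragment 13 kb from the ZIC2/ZIC5 bait have all primed libraries above both naive libraries.

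H3K4me1 was compared between kinds of partner over libraries. In primed PSCs, primed-only partners (16 fragments) had a mean of 0.17, and shared and naive-only partners (8 fragments) of -0.57. In naive PSCs the means were -0.53 and -0.95. The gap between the kinds was 0.33 and 0.51 in the naive libraries and 0.54, 0.81 and 0.89 in the primed libraries, and so was larger in every primed library. The 2 cell types differed by 0.32 in this gap (exact permutation test over the 5 libraries, two-sided, p = 0.2, where the smallest possible p is 0.1), so the design could not reach 0.05.

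Other genes of the GLI superfamily and the Hedgehog pathway, a list of 17 genes with 16 listed baits, had 80 naive and 123 primed interactions. Of these baits, 7 had more in primed PSCs, 6 more in naive PSCs and 3 the same number, and 4 had at least 2 times as many and at least 3 more in primed PSCs (16.1% of all baits). GLI3, a Hedgehog effector, had 1 and 23 at 1 of its baits, GLI2 had 4 and 13, and the ligand genes SHH and IHH had 8 and 16 and 10 and 26. A SUFU bait went the other way, with 8 naive and 0 primed interactions. Of all baits, 14.4% had at least 2 times as many and at least 3 more in naive PSCs. GLI1, GLIS3, SMO and HHIP had no listed bait. H3K4me1 was higher in primed PSCs at 3 of the 16 baits and higher in naive PSCs at 1, where 7.66% and 18.1% of all baits were called. The 3 were GLI2 (difference 1.48), GLI3 (2.11, at the bait with 0 and 1 interactions) and SHH (1.37). GLI3 passed under all 13 alternatives. The GLI2 call was lost without naive replicate 1 (limma adjusted p = 0.121) and by the highest tile, with a difference of 0.29, and the SHH call was lost without naive replicate 1 or 2 (limma adjusted p = 0.0950 and 0.0596). The other was IHH, with 0.70 and 0.45 in naive and -0.82, -0.99 and -1.24 in primed PSCs (difference -1.59, limma adjusted p = 0.000521), a call that was lost without naive replicate 1. The list's median was 0.14.

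The labelled cell types were checked at the baits of marker genes. Of 4 listed baits of naive markers, those of DPPA5, DPPA3 and SUSD2 were higher in H3K4me1 in naive PSCs, where 18.1% of all baits were called, and that of KLF17 did not pass. The SUSD2 call (limma adjusted p = 0.0383) held under 4 of 13 alternatives, DPPA3 under 12 and DPPA5 under 13. The 4 listed baits of primed markers other than ZIC2 had differences from 0.50 to 0.90, and 0 passed. Their interactions were split: DUSP6 had 0 naive and 35 primed, SFRP2 had 19 naive and 5 primed, and 3 of the 4 baits had more in naive PSCs. Baits of genes of other lineages (GATA6, SOX17, TBXT and PAX6) had 15 naive and 92 primed interactions over 5 baits. All 5 had at least 2 times as many and at least 3 more in primed PSCs, as did 16.1% of all baits. The paper describes many developmental genes joined by Polycomb-associated contacts in primed PSCs. Contacts do not measure expression, so these numbers do not show which cell types a culture held. In H3K4me1 the bait of TBXT was called higher in primed PSCs (difference 1.17, under 10 of 13 alternatives), and the other 4 were not called: GATA6 had -0.85 with no overlap between the groups, SOX17 -0.04 and the PAX6 baits 0.73 and 0.27. The part of other cell types in the ZIC contacts was not tested.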

How the data were processed

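PCHi-C and Hi-C reads were mapped and filtered with HiCUP on GRCh38, and the authors scored PCHi-C fragment pairs with CHiCAGO from the replicates of a cell type together; the deposited lists hold the CHiCAGO score and read counts of each pair scoring at least 5. The deposited Hi-C files hold counts per pair of 100 kb bins. H3K4me1 reads were trimmed with Trim Galore and mapped with Bowtie2 (versions 2.2.7 and 2.3.2 stand in the submitters' processing notes), and the authors deposited log2 RPM per 500 bp tile, in which an empty tile counts as 0.9 reads. Whole reads were recovered from these values for 100% of low tiles. Library sizes, worked out from the value of an empty tile, were about 6743810 to 26596500 reads. Fragment values correlated at 0.834 to 0.898 within and 0.558 to 0.607 between cell types (Pearson's r across fragments, which are not independent). 0 columns of other samples were found.

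Column 4 of the lists marks baited fragments only by strand. ZIC baits were therefore named by GENCODE release 44 promoters, a substitute for names in that column that was chosen here; the study itself used another gene model release. Members and lists were chosen with earlier results of these data known, and 1 gene of the Hedgehog list is not reported here. Named partners were the baited ones, for each locus and cell type the 5 with the highest score and the 3 farthest, those over 1 Mb, and the 5 with the largest non-overlapping H3K4me1 differences past the threshold in each direction; other partners and the start tiles were named after their values were seen.

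Fragment means were tested with limma 3.58.1 (trend, Benjamini-Hochberg over all 88413 fragments, threshold 0.05) in R 4.3.3, and edgeR 4.0.16 on recovered reads was added after seeing the data. Scripts were tested on simulated data. Alternatives changed the score limit, the matching of ends, normalization, filters, the fragment summary and the libraries used. NANOG, SOX2 and input libraries were not analysed here.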

Additional observations from a re-analysis of the deposited data

How the results depend on the processing

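More ZIC interactions were listed in primed than in naive PSCs at both loci under every score, read and list-size alternative, but the numbers fell. At scores of at least 7, ZIC1/ZIC4 had 0 naive and 4 primed and ZIC2/ZIC5 had 3 and 9. At scores of at least 10 they had 0 and 3, and 2 and 4. With at least 10 reads ZIC1/ZIC4 had 0 naive interactions, and with the ZIC4-AS1 bait counted as well (chosen after seeing the data) it had 2 naive and 21 primed. The interaction over 1 Mb was lost (0) at scores of at least 10 and at 10 reads. The shared percentage of naive interactions became 100 with ends matched within 10 kb and with a score of 10 matched against 5, and that of primed interactions 52.2 with ends within 10 kb.

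For H3K4me1, the number of ZIC baits called higher in primed PSCs went from 0 to 2 under quantile normalization, by the highest tile and by edgeR on recovered reads, and was 0 to 1 with a library left out. The difference at the ZIC1-side bait changed sign to 0.13 (quantile), 1.11 (highest tile), 0.072 (without primed replicate 2, in a range from -0.30 to 0.072 with a library left out) and 0.60 (edgeR). Partners called higher in primed PSCs fell from 9 to 5 with every tile raised to the floor of the shallowest library (added after seeing the data) and ranged from 3 to 12 with a library left out, the lowest without naive replicate 1. Partners called higher in naive PSCs went from 3 to 0 after centring, without the trend and with the floor, to 1 by quantile normalization, highest tile, edgeR and among fragments above the median level, and ranged from 0 to 3 with a library left out. The Hedgehog list had 6 baits higher in primed PSCs by quantile normalization and edgeR (2 to 4 with a library left out), and 2 rather than 1 higher in naive PSCs with the floor and among fragments above the median level (0 to 2 with a library left out). Of the ZIC tiles, 12 and 1 were called with a mean above 0, 8 were higher in naive PSCs without a filter, and the ranges with a library left out were 16 to 23 and 2 to 8. Over all 88413 fragments, calls higher in primed PSCs went from 8674 to 6309 with the floor. Those higher in naive PSCs went from 13462 to 11362 after centring, 9997 without the trend and 12194 with the floor. Over all baits, calls higher in primed PSCs went from 1225 to 1651 by quantile normalization and 2154 by edgeR. Of 185596 tiles with a mean above 0, 23480 and 14286 were called. Calls over all features also changed with a library left out. The cause of these changes was not tested.

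The fit with the replicate number as a block called 0 ZIC baits, 9 and 2 partners, 4 and 1 list baits and 20 and 5 tiles (higher in primed and in naive PSCs). Over all features it called 8848 and 11702 of 88413 fragments, 1159 and 2145 of 15982 baits and 105616 and 99427 of 465156 tiles. The replicate numbers were not shown to pair the libraries: same-numbered deviations correlated at 0.0814 and 0.205 over 2 pairs, and the labels do not say what a number marks. PCHi-C lists without replicates, 1 line, and as few as 2 libraries a group limit all comparisons, and the shallowest libraries limit tiles with few reads.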
